A study of Arabidopsis thaliana with 12 samples.

Results

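The response to low water potential in wild-type seedlings was measured by RNA-seq in 6 of the 12 libraries of a study of Arabidopsis thaliana. WT stress (3 libraries) held Col-0 wild-type seedlings grown for 7 days and then placed on plates whose water potential polyethylene glycol had lowered to -0.7 MPa, and WT control (3 libraries) held Col-0 seedlings kept at -0.25 MPa. The labels do not make plain whether control seedlings were also moved to new plates. If they were not, low water potential and the handling of a transfer cannot be told apart. Both groups were whole seedlings collected 96 h after day 7, grown under continuous light without added sugar, and each library was labelled as 1 biological replicate. The other 6 libraries were of the mutant line ahl10-1 under the same treatments (ahl10-1 stress and ahl10-1 control, 3 libraries each). Libraries were assigned by their titles, and the data speak for 1 ecotype, 1 stress level and 1 time.

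When the medium holds water more tightly than the seedling, roots take up less water. Seedlings then accumulate abscisic acid (ABA), slow their growth and build up compatible solutes and protective proteins. ABA is bound by soluble receptors of the PYR/PYL family, which inhibit clade A protein phosphatases 2C. That inhibition frees SnRK2 kinases, which phosphorylate bZIP transcription factors that bind ABA-responsive elements. Polyethylene glycol of high molecular weight lowers the water potential without entering the cell wall pores, so the treatment resembles drying soil more than a salt treatment does.

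Reads in genes were 68555138, 60904450 and 57996104 in WT stress and 66906434, 61056858 and 61107978 in WT control. Of the 22604 genes tested, 24.2% were called at an adjusted p under 0.05 (edgeR's quasi-likelihood test with Benjamini-Hochberg adjustment), with 2649 higher (11.7%) and 2829 lower (12.5%) in WT stress. With a change of at least 2-fold, 614 genes (2.72%) were higher and 944 (4.18%) were lower, 6.89% together, and the libraries of the groups did not overlap for 43.3% of tested genes. Higher genes made up 48.4% of the calls in this fit, against 59.4% on log2(RPKM + 1), 59.1% on log2(RPKM + 0.1) and 57.2% with upper-quartile factors. These shares are the background for every list below, and the median log2 fold change of all tested genes was -0.00158. Levels are CPM, each read count relative to its library total adjusted by TMM factors. The 82 gene lists were described by their counts and medians, with no test of their own, and a change is a log2 fold change of WT stress over WT control.

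WT control replicate 1 stood apart from the other controls. Among genes of at least 5 CPM, 185 were at least 2 times as high in it as in both other control libraries, against 7 and 58 for control replicates 2 and 3 and 6, 30 and 26 for the stress replicates. The first principal component held 64% of the variance of the 6 libraries, and the second, with 11.1%, set this library at -38 and the other controls at 22.1 and 22.7. Several genes that were highest in it are given with and without it below. All 11 root hair markers and all 7 mesophyll markers were detected in every library. In these bulk samples, fewer cells of a type and less RNA per cell cannot be told apart.

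**Figure D1:**
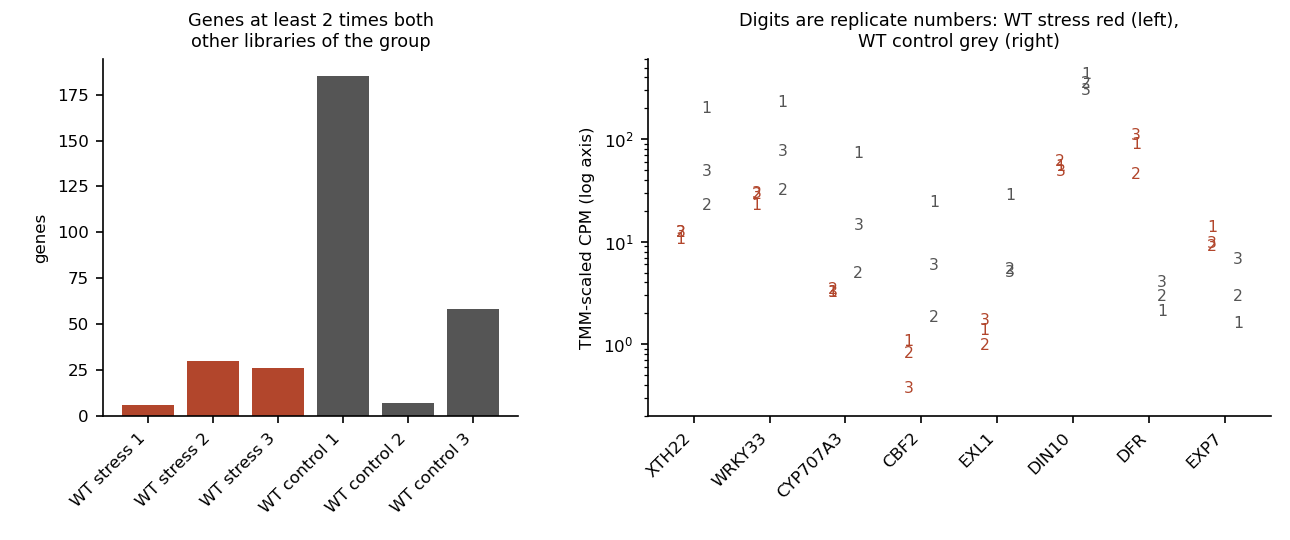
The left panel counts, for each WT library, the genes at least 2 times as high as in both other libraries of its group, and the right panel plots CPM on a log axis for 8 genes, with each digit the replicate number, WT stress in red on the left and WT control in grey on the right. WT control replicate 1 has 185 such genes and lies highest for XTH22, WRKY33, CYP707A3, CBF2 and EXL1, but not for DFR or EXP7 (EXPA7), where it is lowest. For DIN10 it is also the highest control, at 424 CPM, against 352 and 296 CPM in the other controls.

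In the ABA pathway, transcripts of the receptors were lower and transcripts of the phosphatases they inhibit were higher in WT stress. Of 14 receptor genes, PYL10, PYL11 and PYL13 had too few reads to be tested, and of the 11 tested 9 fell and 0 rose, a share lower of 81.8% with a median log2 fold change of -0.89. Of 9 clade A phosphatases, 7 rose and 0 fell (77.8%), with a median of 0.86. The bZIP factors that act downstream, ABF and ABI5 with their relatives, rose in 6 of 8 genes, with a median of 0.43. With any 1 library left out, 8 or 9 receptor genes were lower, and between 5 and 7 phosphatases and between 4 and 6 bZIP genes were higher.

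PYL6 measured 1.23, 1.1 and 0.715 CPM in WT stress and 10.6, 23.6 and 14.4 CPM in WT control. PYL5 measured 7.91, 9.94 and 8.11 CPM in WT stress and 45.5, 51.4 and 39.7 CPM in WT control. PYL4, the most abundant receptor transcript in control seedlings by reads, measured 25.9, 25.1 and 30.1 CPM in WT stress and 113, 160 and 127 CPM in WT control. For all 3 receptors every stress library lay below every control library. Their log2 fold changes were -3.99 ± 0.33 (adjusted p = 1.43e-05), -2.39 ± 0.17 (adjusted p = 4.44e-06) and -2.30 ± 0.17 (adjusted p = 5.52e-06), each with a standard error derived from edgeR's F statistic. PYR1 fell by 0.89, PYL1 by 0.85, PYL8 by 1.05 and PYL2 by 0.61 on the log2 scale. PYL7 was at 20, 20.9 and 16.2 CPM in WT stress and 19.6, 18.4 and 17 CPM in WT control, so its groups overlapped.

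Among the phosphatases, HAI1, one of the highly ABA-induced members, measured 46.9, 46.2 and 29.5 CPM in WT stress and 6.53, 4.42 and 6.50 CPM in WT control. ABI2 measured 23.6, 33.2 and 21 CPM in WT stress and 10.8, 10.7 and 11.4 CPM in WT control. PP2CA measured 104, 109 and 84.9 CPM in WT stress and 52.9, 43.7 and 54.3 CPM in WT control. None of these groups overlapped, and the log2 fold changes were 2.81 ± 0.31 (adjusted p = 0.00014), 1.25 ± 0.17 (adjusted p = 0.000295) and 0.98 ± 0.13 (adjusted p = 0.000263). HAB1 rose by 0.55 and HAB2 by 0.34, whereas AHG1 and HAI3 stayed under 1 CPM in every library and were not called.

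**Figure D2:**
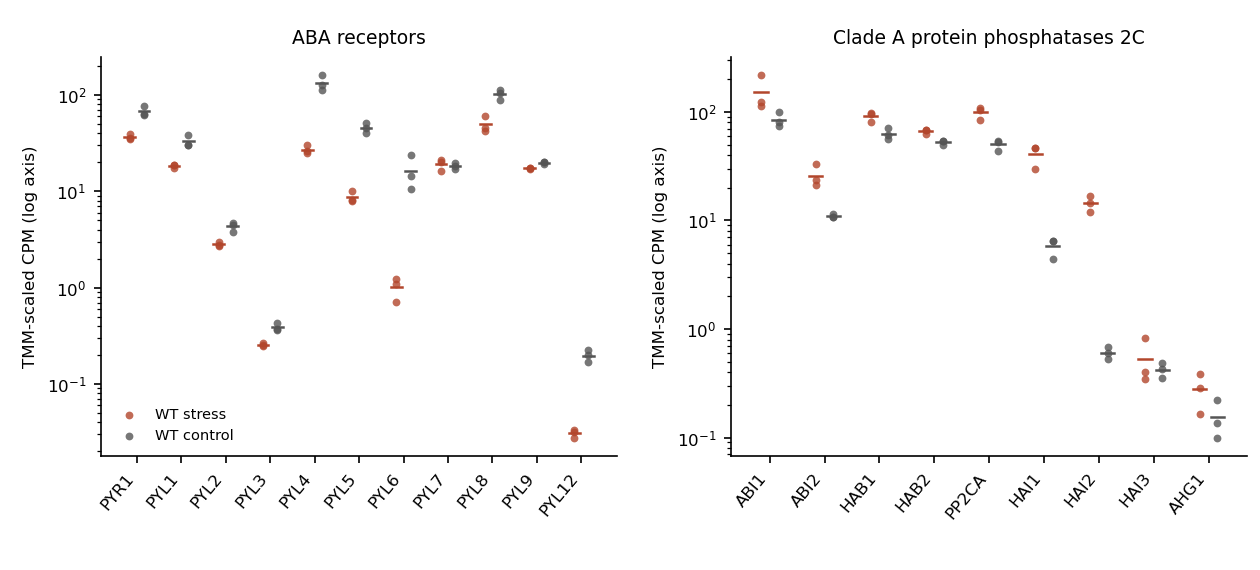
Each point is 1 library, placed by its TMM-scaled CPM on a log axis, with WT stress left of WT control for each gene and bars at the group means. Receptors such as PYL4, PYL5 and PYL6 lie lower in WT stress (left panel), and the phosphatases ABI2, PP2CA, HAI1 and HAI2 lie higher (right panel), with no overlap for any of these 7 genes.

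Other steps of ABA supply and signalling moved less uniformly. BGLU18, a beta-glucosidase that releases ABA from its glucose ester, measured 1959, 1089 and 2137 CPM in WT stress and 181, 310 and 185 CPM in WT control (log2 fold change 2.94 ± 0.38, adjusted p = 0.000345). WT stress replicate 2 was the lowest stress library and still above every control library. NCED3, which catalyses the committed step of ABA synthesis, was at 9.41, 11.0 and 4.72 CPM in WT stress and 6.56, 1.95 and 4.45 CPM in WT control, and was not called (adjusted p = 0.121). The ABA 8'-hydroxylase CYP707A1, which breaks ABA down, rose by 0.89, and CYP707A4 rose by 1.1, with under 4 CPM in every library. CYP707A3, of the same enzyme family, was at 3.20, 3.38 and 3.22 CPM in WT stress and 71.7, 4.91 and 14.5 CPM in WT control, with WT control replicate 1 far above the rest. Its fold change was -3.22 (adjusted p = 0.0214) with all libraries and -1.57 (adjusted p = 0.0394) without WT control replicate 1, and the call was lost without each of the stress replicates (adjusted p from 0.0632 to 0.0712). Of 10 SnRK2 kinases, 3 rose and 1 fell, with SNRK2.7 at 1.14 ± 0.14 and SNRK2.8 at -0.80 ± 0.14 on the log2 scale. GBF3, an ABA-responsive bZIP factor, rose by 1.12, ABI5 by 1.08 and ABF2 by 0.67, while AREB3 and EEL were at 0.03 and -0.14 and were not called.

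Late embryogenesis abundant (LEA) proteins are small hydrophilic proteins thought to protect membranes and enzymes from drying. Of 15 LEA genes outside the dehydrin class, 8 rose and 0 fell (53.3%), with a median log2 fold change of 0.59. LEA4-5 measured 10.6, 11.5 and 5.72 CPM in WT stress and 0.900, 0.943 and 0.849 CPM in WT control. LEA7 measured 26.3, 32.1 and 18.9 CPM in WT stress and 2.94, 3.21 and 3.41 CPM in WT control. Both had their lowest stress value in replicate 3, still above all controls, and rose by 3.37 ± 0.55 (adjusted p = 0.00161) and 3.02 ± 0.57 (adjusted p = 0.00439) on the log2 scale. COR15B, a chloroplast protein of the cold response, rose by 2.74 ± 0.26 (adjusted p = 4.71e-05).

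Of the 7 dehydrins tested, 1 rose and 0 fell (14.3%), near the share of 11.7% among all tested genes, and 6 had positive fold changes. The gene that rose was RAB18, at 97.3, 83.1 and 49.2 CPM in WT stress and 7.75, 10.0 and 11.8 CPM in WT control (log2 fold change 2.96 ± 0.48, adjusted p = 0.00174). The abundant dehydrins ERD14 and HIRD11 were at 0.23 and 0.11 on the log2 scale and COR47 at -0.34, and none of these 3 was called. ERD14, for example, measured 398, 384 and 323 CPM in WT stress and 360, 275 and 308 CPM in WT control.

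The promoters of these genes are shown because ABA-responsive elements are known to sit close to the start of many LEA genes, and 2 receptor kinase genes that fell are shown beside them. Windows of 9 genes were searched, and the 5 that held an ABRE core or a W-box are printed. The windows of COR15A and COR15B, 2 LEA genes, and of the receptor kinase genes CRK30 and CRK12 held neither word. Each is the 250 bases before the annotated start, 5′ to 3′ on the gene's own strand, from the RefSeq sequence of build TAIR10.1. Capitals mark the ABRE core (ACGTGGC or ACGTGTC) and the W-box (TTGACC or TTGACT), each searched on both strands, so a reverse-strand ABRE core reads GACACGT or GCCACGT. RAB18 lies at chr5:26519448-26519697 on the minus strand, in a window that overlaps 1 other gene, LEA4-5 at chr5:2090431-2090680 on the minus strand, LEA7 at chr1:19619474-19619723 on the plus strand, CRK41 at chr4:418077-418326 on the plus strand and CRK4 at chr3:16866262-16866511 on the minus strand.
RAB18: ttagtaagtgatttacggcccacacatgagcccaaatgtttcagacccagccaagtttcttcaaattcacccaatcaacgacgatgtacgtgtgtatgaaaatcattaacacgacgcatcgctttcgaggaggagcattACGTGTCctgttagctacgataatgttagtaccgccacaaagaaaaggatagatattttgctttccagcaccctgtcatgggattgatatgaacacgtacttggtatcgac
LEA4-5: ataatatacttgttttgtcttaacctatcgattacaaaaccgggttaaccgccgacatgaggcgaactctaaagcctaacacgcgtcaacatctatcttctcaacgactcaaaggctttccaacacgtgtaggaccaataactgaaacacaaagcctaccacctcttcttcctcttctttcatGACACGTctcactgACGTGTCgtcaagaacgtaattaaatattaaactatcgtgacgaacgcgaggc
LEA7: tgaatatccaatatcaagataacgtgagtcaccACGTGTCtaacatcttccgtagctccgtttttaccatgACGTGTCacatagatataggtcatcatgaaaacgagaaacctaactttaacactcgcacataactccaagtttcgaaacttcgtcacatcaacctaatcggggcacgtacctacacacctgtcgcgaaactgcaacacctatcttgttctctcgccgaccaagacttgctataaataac
CRK41: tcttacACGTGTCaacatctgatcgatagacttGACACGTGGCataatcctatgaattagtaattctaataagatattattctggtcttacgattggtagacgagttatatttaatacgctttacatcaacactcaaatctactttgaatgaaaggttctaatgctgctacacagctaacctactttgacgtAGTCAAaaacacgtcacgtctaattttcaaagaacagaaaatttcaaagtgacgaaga
CRK4: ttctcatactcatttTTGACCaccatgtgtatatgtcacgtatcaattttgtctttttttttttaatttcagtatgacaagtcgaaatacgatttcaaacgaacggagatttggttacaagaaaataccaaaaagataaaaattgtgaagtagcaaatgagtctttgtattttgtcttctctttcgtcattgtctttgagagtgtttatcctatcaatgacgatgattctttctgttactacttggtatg
The RAB18 window holds 1 ABRE core, whose first base lies 111 bases before the start, the LEA4-5 window holds 2, at 67 and 53, and the LEA7 window holds 2, at 217 and 179. CRK41, a cysteine-rich receptor-like kinase gene that fell (log2 fold change -2.63 ± 0.27), holds 3, at 244, 217 and 214, of which the last pair overlap, and 1 W-box at 58. CRK4, which fell by 1.56 ± 0.25 on the log2 scale, holds 1 W-box at 235 and no ABRE core. The ABRE core was thus present in genes of both directions and absent from some of each, and a match is a description of these letters, not of a bound site.

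Over all promoters, ABRE cores and G-boxes were more frequent upstream of genes that rose than of genes that fell. An ABRE core was found in 13.7% of 612 windows of genes called at least 2-fold higher, 5.09% of 943 windows of genes called at least 2-fold lower and 7.21% of all 22365 windows. The G-box (CACGTG), which can overlap the ABRE core, was in 15.2% of the higher, 5.51% of the lower and 7.3% of all windows. The W-box, the word bound by WRKY factors, ran the other way, at 27.3% of the higher, 40% of the lower and 28.4% of all windows. Site II (TGGGCC), a word of ribosomal protein and other growth genes, was in 8.99% of the higher and 4.45% of the lower windows, against 15.7% of all, and with all called genes in place of those at least 2-fold it was in 15% of the higher and 7.55% of the lower windows. The DRE core (CCGAC) was in 14.9% of the higher, 10.3% of the lower and 12.6% of all windows. By list, 9 of 15 windows of the LEA genes held an ABRE core, as did 8 of 21 light-harvesting and 11 of 24 clock genes, and 23 of 37 windows of cysteine-rich receptor kinases held a W-box.

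**Figure D3:**
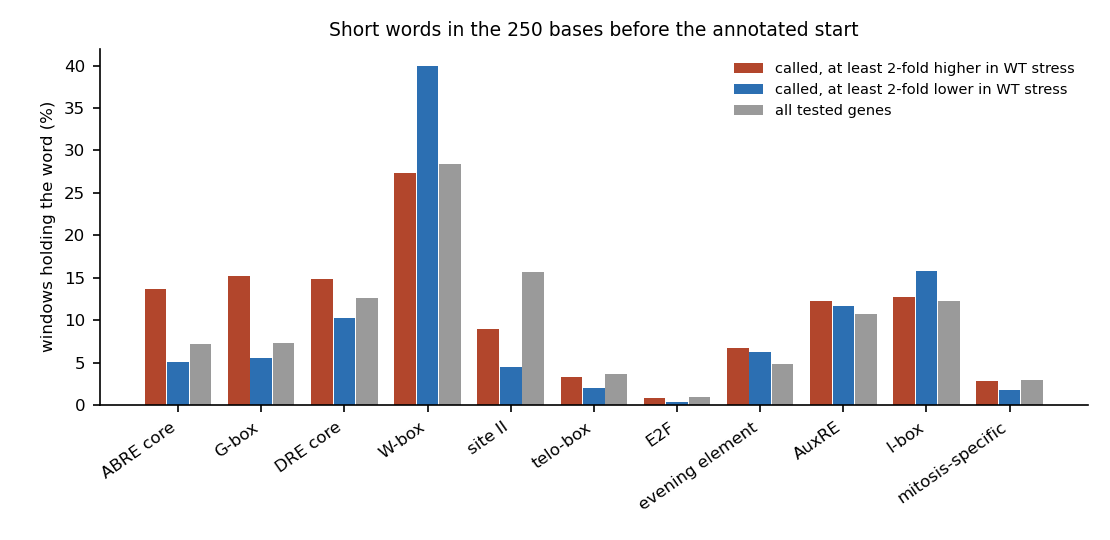
Bars give the percent of 250-base promoter windows that hold each word on either strand, for genes called and at least 2-fold higher in WT stress (red), called and at least 2-fold lower (blue) and all tested genes (grey). ABRE core and G-box bars are tallest for higher genes, the W-box bar is tallest for lower genes at 40%, and site II is tallest among all tested genes at 15.7%.

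Proline and raffinose-family sugars serve as compatible solutes. Of 8 proline genes, 3 rose and 2 fell, with a median of -0.01 on the log2 scale that changed sign between settings. ERD5, the proline dehydrogenase that degrades proline in mitochondria, measured 48.9, 40.3 and 40.9 CPM in WT stress and 121, 147 and 111 CPM in WT control, a log2 fold change of -1.54 ± 0.19 (adjusted p = 0.000181). P5CDH, which carries out the next step of proline breakdown, rose by 0.74 ± 0.07 (adjusted p = 1.88e-05), and the synthesis enzyme P5CR rose by 0.38. P5CS1, which carries out the first step of proline synthesis, measured 736, 776 and 645 CPM in WT stress and 81.3, 61.8 and 79.1 CPM in WT control, and rose by 3.28 ± 0.15 (adjusted p = 4.28e-07). P5CS2 was at 0.18 and was not called. The second gene that fell, the transporter PROT2, was called at an adjusted p of 0.0437 and lost the call when any 1 of 5 libraries was left out, for example at 0.143 without WT stress replicate 2.

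Raffinose synthesis split by gene. GOLS2, a galactinol synthase that starts the pathway, measured 43.3, 43.4 and 30.9 CPM in WT stress and 8.57, 5.66 and 7.35 CPM in WT control, and rose by 2.44 ± 0.23 (adjusted p = 3.76e-05). GOLS4 rose by 1.40 ± 0.21. DIN10, a raffinose synthase family gene induced by darkness, measured 54.0, 60 and 48.6 CPM in WT stress and 424, 352 and 296 CPM in WT control (log2 fold change -2.72 ± 0.28, adjusted p = 7.94e-05). In all, 2 of 8 genes rose and 3 fell, of which GOLS3 and RS4 were under 2 CPM.

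Genes of starch breakdown were mostly higher. Of 20 genes of starch breakdown, 11 rose and 1 fell (55.0% higher), with a median log2 fold change of 0.42, and the count was 10 or 11 with any 1 library left out. BAM5, a beta-amylase known mainly from phloem, measured 11.3, 9.11 and 12.2 CPM in WT stress and 0.473, 0.745 and 0.625 CPM in WT control, and rose by 4.15 ± 0.30 (adjusted p = 4.81e-06). SEX4, a glucan phosphatase needed for starch breakdown, measured 83.3, 77.5 and 95.1 CPM in WT stress and 39.0, 41.6 and 41.4 CPM in WT control (1.07 ± 0.09, adjusted p = 1.57e-05). The debranching enzyme ISA3 rose by 0.88 and the maltose exporter MEX1 by 0.64. AMY2, an alpha-amylase, was the 1 gene that fell, by 0.92 ± 0.12.

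On the synthesis side, 5 of 16 starch genes rose and 1 fell. APL3, a large subunit of ADP-glucose pyrophosphorylase, measured 60.9, 51.5 and 60.5 CPM in WT stress and 14.8, 20.4 and 15.9 CPM in WT control, and rose by 1.76 ± 0.12 (adjusted p = 2.91e-06). APL4 rose by 1.09 ± 0.14, while ADG2, the large subunit that predominates in leaves, fell by 0.63 ± 0.15. Of 16 sucrose genes, 4 rose, led by SUS3, a sucrose synthase, at 46.9, 44.5 and 44.2 CPM in WT stress and 7.44, 8.5 and 7.70 CPM in WT control (2.52 ± 0.14, adjusted p = 1.36e-06). SPS2F, a sucrose phosphate synthase, rose by 1.29 ± 0.18.

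Of 28 sugar transporters, 12 fell and 4 rose, with a median of -0.28. The SWEET exporters went both ways. SWEET15, also known as the senescence gene SAG29, measured 22.7, 46.9 and 17.4 CPM in WT stress and 0.320, 0.596 and 0.961 CPM in WT control (5.54 ± 0.47, adjusted p = 3.2e-05), and SWEET13 rose by 1.61 ± 0.18. SWEET2, a vacuolar member, fell by 1.54 ± 0.24 and SWEET16 by 1.38 ± 0.12. STP1, a hexose importer of the plasma membrane, measured 53.3, 58.6 and 56.6 CPM in WT stress and 137, 110 and 105 CPM in WT control, and fell by 1.06 ± 0.24 (adjusted p = 0.00866).

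Genes that mark carbon shortage were lower. Of 18 such markers, 9 fell and 0 rose (50%), with a median of -0.92 on the log2 scale, and the count was between 7 and 9 with any 1 library left out. BZIP63 (also BZO2H3, AT5G28770), a transcription factor of the low-energy response, measured 15.8, 19.6 and 15 CPM in WT stress and 74.5, 67.6 and 55.2 CPM in WT control, and fell by 1.97 ± 0.18 (adjusted p = 2.54e-05). DIN10, described above, belongs here too. EXL1, an exordium-like gene, was at 1.35, 0.974 and 1.71 CPM in WT stress and 28.0, 5.34 and 4.95 CPM in WT control, so WT control replicate 1 was far above the rest. Its log2 fold change was -3.25 (adjusted p = 0.00811) with that library and -1.93 (adjusted p = 0.00378) without it.

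Among nuclear photosynthesis genes, the count that passed the test depended on the fit. Of 21 light-harvesting genes, 5 fell and 0 rose, all 21 had negative fold changes, and the median was -0.31. Summed over the list, light harvesting held 43700, 46800 and 44000 CPM in WT stress and 66100, 54300 and 53900 CPM in WT control. LHCB1.4 fell by 1.22 ± 0.28 (adjusted p = 0.00863) and LHCA1 by 0.73 ± 0.15 (adjusted p = 0.00401). Leaving out 1 library left 2 genes called lower without any 1 of the stress replicates or WT control replicate 1, and 3 without WT control replicate 2 or 3, whereas 10 were lower in a fit of the 6 WT libraries alone and 8 by DESeq2. Without WT control replicate 1 LHCB1.4 fell by 0.94 (adjusted p = 0.0348). The LHCB1 genes are near-identical copies, so the split of reads between them is uncertain.

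Rubisco and the other Calvin cycle genes had 0 of 24 called in either direction by edgeR and by DESeq2, with 2 at an unadjusted p under 0.05 and a median of -0.24, and 1 was called higher without WT control replicate 3 and up to 2 lower under other settings. The sums were 30800, 34300 and 32000 CPM in WT stress and 39700, 48200 and 32500 CPM in WT control, and the lowest control lay inside the range of the stress libraries. Of these 24 genes, 22 had negative fold changes. Of 25 photosystem subunits, 1 rose, the minor gene PSBP-2 at about 10 CPM, and 0 fell, with up to 4 lower under other settings. Negative fold changes were found for 22 of the 25, with a median of -0.22. The comparison deposited by the submitters called more genes of the Calvin cycle and photosystem lists lower than any setting here.

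Cell wall genes divided by family. Expansins, which loosen walls during growth, rose in 11 of 27 genes and fell in 3, with a median log2 fold change of 0.31. The 11 became 8 without WT stress replicate 1 or WT control replicate 2, and 14 without WT control replicate 3. Xyloglucan endotransglucosylase/hydrolases (XTH), which cut and rejoin xyloglucan, fell in 12 of 30 and rose in 2, with a median of -0.63. Fasciclin-like and other arabinogalactan proteins fell in 15 of 44 and rose in 3, or 5 without WT control replicate 3, with a median of -0.19. Within the expansins, the symbol stem EXPA had 8 of 18 genes higher and 0 lower, and of the other 9 genes 3 rose and 3 fell.

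EXPA10 measured 60.3, 61.8 and 62.8 CPM in WT stress and 25.7, 32.2 and 27.9 CPM in WT control, a rise of 1.11 ± 0.16 (adjusted p = 0.000472). EXPA7 and EXPA18, both known from root hairs, were called at 1.52 and 1.31, and both calls were lost without WT stress replicate 1 (adjusted p = 0.0724 and 0.0801) or WT control replicate 2 (0.0736 and 0.0767). The expansin-like gene EXLA1 fell by 1.63 ± 0.23. XTH24 measured 65.3, 73.6 and 67.9 CPM in WT stress and 246, 221 and 183 CPM in WT control, and fell by 1.65 ± 0.20 (adjusted p = 0.000167). XTH6 fell by 1.72 ± 0.23 and XTH15 by 1.23 ± 0.14.

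XTH22, the touch-responsive gene TCH4, was at 10.6, 12.4 and 12.4 CPM in WT stress and 199, 22.4 and 48.6 CPM in WT control. Its fold change of -2.94 (adjusted p = 0.0249) was -1.58 without WT control replicate 1 (adjusted p = 0.0729), and the call was also lost without any 1 of the stress replicates (adjusted p from 0.0656 to 0.0795). The 2 XTH genes that rose were XTH19 and XTH14. XTH14 was lost without WT stress replicate 1 or 2 or WT control replicate 2, and XTH19 without WT stress replicate 1 or WT control replicate 1, leaving 0 without WT stress replicate 1.

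The fasciclin-like proteins are anchored arabinogalactan proteins with a putative role in adhesion. FLA2 measured 36.9, 41.0 and 37.9 CPM in WT stress and 110, 111 and 116 CPM in WT control, with replicates that lay close together (-1.54 ± 0.07, adjusted p = 4.28e-07). FLA9 fell by 1.83 ± 0.10 and FLA13 by 2.25 ± 0.29, while FLA11, a gene of secondary walls, rose by 0.43 ± 0.10. Over the stem FLA, 8 of 15 genes were lower.

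Secondary wall genes of the xylem were mostly called higher. Of 10 xylem markers, 8 rose and 0 fell (80.0%), with a median log2 fold change of 0.63 and a range from 0.24 to 1.00, and the count was 6 or 7 with any 1 library left out. The cellulose synthases CESA4, CESA7 and CESA8 build secondary walls. CESA4 measured 58, 66.2 and 56.4 CPM in WT stress and 33.3, 35.2 and 34.7 CPM in WT control (0.81 ± 0.10, adjusted p = 0.000194), and CESA7 and CESA8 rose by 0.84 and 0.72. IRX9, a xylan synthesis gene, measured 14.6, 16.4 and 13.3 CPM in WT stress and 7.11, 7.18 and 7.93 CPM in WT control (1.00 ± 0.11, adjusted p = 6.48e-05). LAC4, a laccase of lignin deposition, rose by 0.58. The master regulators VND6 and VND7 rose by 0.68 and 0.57, with under 4 CPM in every library. The primary wall synthases CESA1 and CESA3 were at -0.02 and -0.13 and were not called, and CESA2 fell by 0.34.

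**Figure D4:**
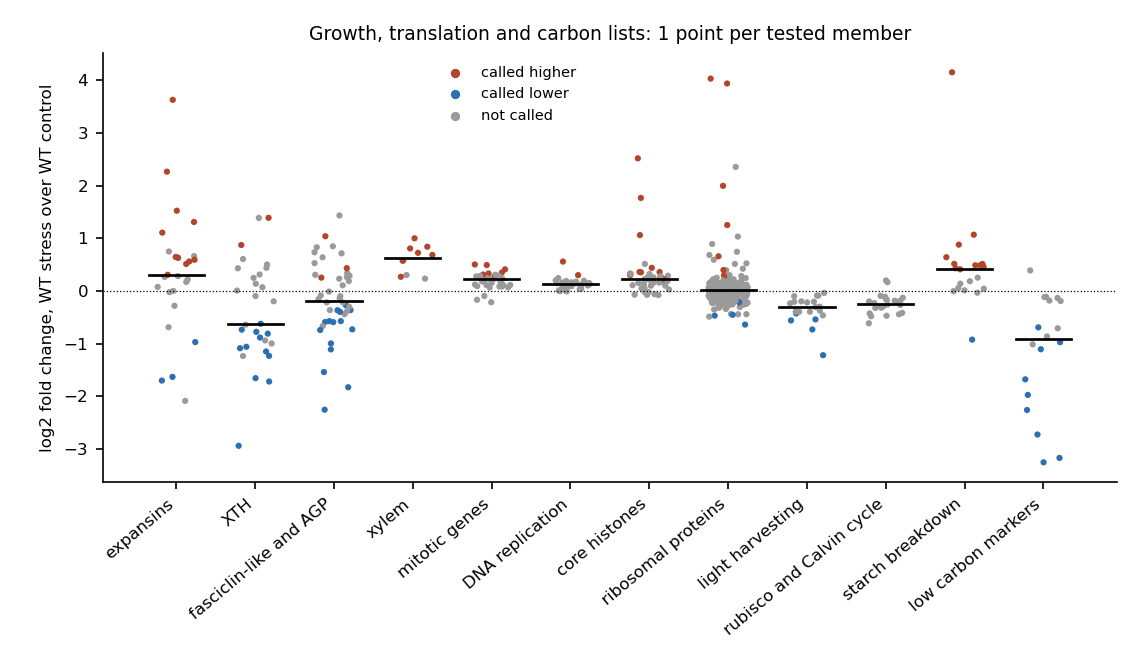
Each point is 1 tested gene, placed by its log2 fold change of WT stress over WT control, in red where called higher, blue where called lower and grey where not called, with a black bar at each list's median. The xylem and starch breakdown lists lie mostly above 0, with medians of 0.63 and 0.42, the XTH and low carbon lists lie mostly below, at -0.63 and -0.92, and the ribosomal proteins centre on 0.01.

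Genes of cell division were not called lower, and few ribosomal protein genes were called. Of 33 mitotic genes, 7 rose and 0 fell, with a median of 0.23 and no change of 2-fold, and CYCB1;1, a mitotic cyclin, measured 12.7, 12 and 11.3 CPM in WT stress and 8.14, 7.99 and 9.34 CPM in WT control (0.50 ± 0.12, adjusted p = 0.0108). The count of 7 was 2 without WT stress replicate 1, 3 without WT control replicate 1 and 4 without WT stress replicate 2 or WT control replicate 2 or 3. Core histones rose in 10 of 42 genes and fell in 0, with 6 left without WT stress replicate 1 or WT control replicate 1. TSO2, a ribonucleotide reductase subunit, measured 121, 106 and 105 CPM in WT stress and 70.4, 81.1 and 74.5 CPM in WT control, and rose by 0.56 ± 0.10 (adjusted p = 0.00213). Of 324 ribosomal protein genes, 8 rose and 4 fell, and the sums were 47600, 46400 and 44000 CPM in WT stress and 45700, 47200 and 47400 CPM in WT control, which overlap. The 8 and 4 moved to 4 and 1 without WT stress replicate 1 or WT control replicate 2, to 5 and 1 without WT stress replicate 2 or WT control replicate 1, to 6 and 1 without WT stress replicate 3, and to 11 and 9 without WT control replicate 3.

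More growth hormone genes fell than rose. The list of brassinosteroid genes had 9 of 22 lower and 0 higher with a median of -0.21, and 5 lower without WT stress replicate 3 or WT control replicate 1. BEE1, a brassinosteroid-enhanced transcription factor, fell by 1.68 ± 0.23 and BEE2 by 0.55 ± 0.11. SAUR genes, early auxin targets, fell in 18 of 69 and rose in 6, with 9 lower without WT stress replicate 1 and 11 without WT stress replicate 3, and with between 1 and 4 higher in every leave-one-out fit, at 1 without WT stress replicate 1 or WT control replicate 1. SAUR78 measured 15.7, 21 and 19.0 CPM in WT stress and 72.8, 78.7 and 62.4 CPM in WT control (-1.94 ± 0.21, adjusted p = 9.54e-05). Auxin synthesis and carrier genes fell in 8 of 25, with PIN5 at -0.84 ± 0.15 and TAR2 at -0.67 ± 0.14, and 3 were left without WT stress replicate 1 or WT control replicate 1 and 4 without WT stress replicate 2 or 3. The Aux/IAA repressors fell in 8 of 28 and rose in 2 (1 without WT stress replicate 1 or 2 or WT control replicate 2 or 3), with 5 lower without WT stress replicate 1 or WT control replicate 1. IAA2 fell by 0.86 ± 0.19 and IAA28 rose by 0.44 ± 0.09.

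Among gibberellin-related genes, 2 GASA members moved in opposite directions. GASA4 measured 537, 495 and 503 CPM in WT stress and 181, 170 and 167 CPM in WT control (1.57 ± 0.10, adjusted p = 2.48e-06). GASA1 (AT1G75750) measured 68.1, 67.6 and 45.7 CPM in WT stress and 213, 250 and 190 CPM in WT control (-1.85 ± 0.25, adjusted p = 0.000424). RGA, a DELLA repressor, fell by 0.40 ± 0.06, whereas the receptors GID1A, GID1B and GID1C were at 0.07, 0.24 and 0.04 and were not called. The cytokinin oxidases CKX5 and CKX6, which degrade cytokinin, fell by 1.08 ± 0.15 and 1.12 ± 0.17.

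Several ethylene genes fell and several jasmonate genes rose. Of 23 ethylene genes, 8 fell and 0 rose, and the count was 7 or 8 with any 1 library left out. ACS11, an ACC synthase, was at 0.482, 0.204 and 0.449 CPM in WT stress and 18.4, 2.99 and 5.33 CPM in WT control, with WT control replicate 1 highest (-4.54 with it, adjusted p = 0.002, and -3.44 without it, adjusted p = 0.00162). The ACC oxidase ACO4 fell by 0.53 ± 0.10.

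Of 14 jasmonate synthesis genes, 5 rose, and of 13 output genes, 5 rose, with 0 lower in either list (1 output gene without WT stress replicate 3). In the synthesis list 2 genes rose at least 2-fold, and log2 fold changes ran from -0.66 to 2.99. AOC4, an allene oxide cyclase, rose by 0.54. THI2.1, a thionin, measured 22.5, 6.77 and 27.6 CPM in WT stress and 0.0915, 0.596 and 0.0320 CPM in WT control (6.32 ± 0.89, adjusted p = 0.000831). Only 1 of the 12 JAZ repressor genes, JAZ12, was called (0.25, adjusted p = 0.0449), and with any 1 library left out its call was lost. MYC2, the central transcription factor, was at 80.2, 72.1 and 76.7 CPM in WT stress and 153, 55.6 and 85.0 CPM in WT control and was not called.

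More defence genes fell than rose, and several of these changes depended on WT control replicate 1. Cysteine-rich receptor-like kinases (CRK) fell in 11 of 37 genes and rose in 4, with a median of -0.34, and between 10 and 13 were lower with any 1 library left out, against 2 higher without WT stress replicate 1 or 3 or WT control replicate 3. CRK12 measured 0.441, 0.204 and 0.366 CPM in WT stress and 6.86, 4.86 and 4.47 CPM in WT control (-3.99 ± 0.37, adjusted p = 2.2e-05). CYP71A12, a P450 of camalexin and related indole compounds, measured 4.78, 7.4 and 9.81 CPM in WT stress and 52.1, 40.6 and 39.7 CPM in WT control (-2.59 ± 0.42, adjusted p = 0.00181). CYP81F2, which modifies indole glucosinolates, fell by 2.24 ± 0.30, and it was highest in control replicate 1, at 16.7 CPM against 9.25 and 9.72 CPM in the other two controls. WRKY54, a factor of salicylic acid responses, was at 1.74, 1.62 and 1.98 CPM in WT stress and 6.83, 6.49 and 4.93 CPM in WT control (-1.77 ± 0.19, adjusted p = 7.48e-05).

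Immune receptors and early response genes fell in 8 of 26, with 5 left without WT control replicate 1, 3 without WT stress replicate 1 and 12 without WT control replicate 2. WRKY33, a pathogen-responsive factor, was at 22.7, 28.7 and 29.6 CPM in WT stress and 228, 31.5 and 76.2 CPM in WT control. Its fold change was -2.05 (adjusted p = 0.0382) with all libraries and -0.99 (adjusted p = 0.129) without WT control replicate 1, and the call was also lost without each of the stress replicates (adjusted p from 0.0827 to 0.113). WRKY22 kept its call, at -2.56 with that library and -1.77 without it (adjusted p = 0.00681 and 0.00866). MPK3, an immune MAP kinase, was at -1.15 (adjusted p = 0.0229) with it and -0.58 (adjusted p = 0.0142) without it, and lost its call without WT stress replicate 1 or 2 (adjusted p = 0.0797 and 0.0657). Over the WRKY family, 14 of 64 genes fell and 7 rose, with WRKY23 and WRKY44 at 1.00 ± 0.10 and 0.93 ± 0.11. The 14 became 10 without WT control replicate 1 or any 1 of the stress replicates, and 17 without WT control replicate 2. The 7 became 11 without WT control replicate 3. Of 20 salicylic acid and PR genes, 5 fell and 1 rose, by at least 2-fold. The count lower was 3 without WT stress replicate 1 or 2 and 8 without WT control replicate 2. The count higher was 1 with any 1 library left out, and log2 fold changes in the list ran from -3.75 to 4.03. The genes at both ends of that range did not meet the rule by which genes were named. That rule asked for a call, a higher mean of at least 5 CPM and libraries without overlap.

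Late anthocyanin genes rose steeply while the general phenylpropanoid entry did not. Of 27 flavonoid and anthocyanin genes, 10 rose, 7 of them at least 2-fold, and 2 fell. DFR, the dihydroflavonol reductase, measured 87.9, 45.1 and 108 CPM in WT stress and 2.06, 2.95 and 3.96 CPM in WT control (4.75 ± 0.46, adjusted p = 8.51e-05). LDOX, which acts next, measured 82.0, 36.5 and 90.6 CPM in WT stress and 2.43, 2.43 and 3.94 CPM in WT control (4.57 ± 0.44, adjusted p = 8.74e-05). WT stress replicate 2 was the lowest stress library for both, and for UF3GT (24.2, 9.17 and 30.2 CPM in WT stress). The MYB activator PAP1 rose by 4.96 ± 0.52 and GSTF12, which carries anthocyanin to the vacuole, by 4.51 ± 0.38. The phenylalanine ammonia-lyases PAL2 and PAL3 fell by 0.37 ± 0.08 and 1.49 ± 0.14.

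Of 24 cuticular wax genes, 10 fell and 2 rose, with a median of -0.23. The 10 became 7 without any 1 of the stress replicates or WT control replicate 1, and 8 without WT control replicate 2. CER1, needed for alkane formation, measured 70.5, 81 and 82.3 CPM in WT stress and 18.3, 23.5 and 22.5 CPM in WT control (1.86 ± 0.11, adjusted p = 1.37e-06). CER6, the condensing enzyme that lengthens wax precursors, measured 139, 139 and 126 CPM in WT stress and 238, 270 and 222 CPM in WT control (-0.86 ± 0.11, adjusted p = 0.000243), and CER2 fell by 0.90 ± 0.12. The other gene called higher was WSD1, a wax ester synthase, at 1.28 (adjusted p = 0.0239), whose call was lost without WT stress replicate 2 (adjusted p = 0.1) or WT control replicate 1 or 3 (0.0928 and 0.0731). KCS20, another condensing enzyme, fell by 0.54 ± 0.09. Of 18 suberin genes, 1 rose and 2 fell, 15 had positive fold changes and the median was 0.24, and the 1 gene became 0 without WT stress replicate 1 or WT control replicate 1 or 2, and 2 without WT control replicate 3.

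Among 14 lipid transfer proteins, 5 rose and 4 fell. LTP3 measured 75.3, 86.1 and 92 CPM in WT stress and 7.67, 6.85 and 7.43 CPM in WT control (3.53 ± 0.38, adjusted p = 0.000164), and LTP2 rose by 1.93 ± 0.25. AZI1 and DIR1, both known from systemic acquired resistance, fell by 2.2 ± 0.29 and 1.45 ± 0.31. AT2G45180 is not one of these 14 genes and is named because it held at least 0.1% of a library. It measured 185, 217 and 189 CPM in WT stress and 1180, 1289 and 1079 CPM in WT control (-2.58, adjusted p = 2.71e-06).

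Aquaporins changed gene by gene. Of 32 tested, 7 fell and 5 rose, and the 5 became 3 without any 1 of the stress replicates or WT control replicate 1. DELTA-TIP, a tonoplast water channel, measured 247, 305 and 281 CPM in WT stress and 750, 728 and 765 CPM in WT control (-1.43 ± 0.15, adjusted p = 4.64e-05). PIP1;5 measured 102, 116 and 111 CPM in WT stress and 252, 226 and 252 CPM in WT control (-1.15 ± 0.12, adjusted p = 5.08e-05). PIP2;5 went up, at 33.0, 25.8 and 34.3 CPM in WT stress and 13.6, 14.1 and 12.3 CPM in WT control (1.22 ± 0.15, adjusted p = 0.000211).

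Among nutrient genes, more fell than rose for nitrogen and iron, and more rose than fell for phosphate. Nitrate and ammonium genes fell in 11 of 25 and rose in 4, or 2 without WT stress replicate 3, with a median of -0.50. NRT1.1, the dual-affinity nitrate transporter and sensor, measured 144, 148 and 147 CPM in WT stress and 228, 293 and 282 CPM in WT control (-0.87 ± 0.14, adjusted p = 0.000767). The nitrate reductase NIA1 fell by 1.24 ± 0.18, while the cytosolic glutamine synthetases split, GLN1;4 at -1.47 ± 0.32 and GLN1;3 at 0.87 ± 0.10. Phosphate starvation genes rose in 7 of 24 and fell in 2, or 1 without WT stress replicate 2. PAP17, an acid phosphatase of that response, measured 61.3, 62.3 and 61.3 CPM in WT stress and 14.1, 18.4 and 18.7 CPM in WT control (1.85 ± 0.11, adjusted p = 1.75e-06). Iron genes fell in 10 of 30, or 6 without WT stress replicate 1 and 5 without WT stress replicate 3, and among them were BHLH38 and BHLH39, regulators of iron uptake, at -2.11 ± 0.52 and -1.72 ± 0.40. WT control replicate 3 was the highest control for both, at 19.7 and 19.2 CPM, and BHLH38 was at -1.35 without it (adjusted p = 0.0311) and lost its call without WT stress replicate 3 (adjusted p = 0.0509). NAS4, a nicotianamine synthase, fell by 1.02 ± 0.19.

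Protein folding and redox genes changed moderately. HSP20-like chaperones rose in 14 of 37 and fell in 3, and the 14 became 7 without WT stress replicate 1 or WT control replicate 1, 6 without WT stress replicate 2, 9 without WT stress replicate 3 and 5 without WT control replicate 2. Within that class AT4G21870 fell, at 5.22, 6.21 and 4.14 CPM in WT stress and 39.8, 64.6 and 40.7 CPM in WT control (-3.22 ± 0.25, adjusted p = 1.08e-05). Large chaperones rose in 1 of 26, or 5 without WT control replicate 3. Redox enzymes rose in 9 of 33, or 3 without WT stress replicate 1 and 4 without WT control replicate 1, with DHAR1, a dehydroascorbate reductase, at 550, 445 and 562 CPM in WT stress and 279, 300 and 312 CPM in WT control (0.81 ± 0.11, adjusted p = 0.000334). Glutathione transferases rose in 14 of 49 and fell in 10. Without WT stress replicate 1 these were 7 and 6, without WT control replicate 1 9 and 6, and 6 fell without WT stress replicate 3. GSTU8 rose by 0.98 ± 0.10 and GSTF14 fell by 2.36 ± 0.28.

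Among transcription factors, the NAC family rose in 20 of 83 genes and fell in 5, or 3 without WT stress replicate 1 or WT control replicate 1 and 8 without WT control replicate 2, with a median of 0.16. NAC032 measured 35.5, 33.5 and 29.3 CPM in WT stress and 12.8, 9.85 and 14.7 CPM in WT control (1.40 ± 0.13, adjusted p = 2.54e-05). NAC003 rose by 1.01 ± 0.11. Of 16 HD-Zip I factors, 4 rose, or 2 without WT control replicate 3. At least 2-fold rises were found for 2 of them, and log2 fold changes in the list ran from -0.581 to 2.085. HB6, a target of ABA signalling, rose by 0.43 ± 0.10. Of 18 heat shock factors, 2 rose and 2 fell, shares near the background. HSFA3 and HSFA7A fell by 1.57 ± 0.24 and 1.43 ± 0.17, HSF4 rose by 0.53 ± 0.11, and HSFA6A rose to 7.88, 7.26 and 2.74 CPM in WT stress, against at most 0.0305 CPM in any WT control library.

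The DREB factors of cold and drought gave a count of 1 higher and 3 lower of 10. DREB2A was at 9.21, 9.28 and 8.68 CPM in WT stress and 11.8, 5.53 and 8.90 CPM in WT control and was not called. The lower calls included CBF2, at 1.05, 0.817 and 0.366 CPM in WT stress and 23.9, 1.84 and 5.81 CPM in WT control, and the 3 became 1 without WT stress replicate 2 or 3. CBF2 was at -3.81 (adjusted p = 0.0158) with all libraries and -2.34 (adjusted p = 0.0367) without WT control replicate 1, and lost its call without WT stress replicate 2 or 3 (adjusted p = 0.0516 and 0.0542).

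Under continuous light, clock genes fell in 8 of 24 and rose in 3, and 3 were lower without WT stress replicate 1 or 3 or WT control replicate 1, and 5 without WT control replicate 2. LNK2, a clock coactivator, measured 167, 209 and 181 CPM in WT stress and 513, 447 and 420 CPM in WT control (-1.31 ± 0.13, adjusted p = 3.59e-05). ELF4 and PRR3 rose by 0.51 ± 0.08 and 0.56 ± 0.07.

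Class III peroxidases rose in 10 of 62 and fell in 10, and these were 4 and 6 without WT stress replicate 1, 5 and 8 without WT stress replicate 3 or WT control replicate 2, and 6 and 9 without WT control replicate 1. Pectin methylesterases and their inhibitors fell in 11 of 54 and rose in 5, or 8 without WT control replicate 3. Chlorophyll breakdown genes rose in 3 of 10 and fell in 0. Autophagy genes rose in 4 of 29 (13.8%), near the share of 11.7% among all tested genes, and fell in 2, with a median of 0.03. The largest change in the autophagy list was a fall, ATG8E at -0.75 ± 0.13. The GH3 genes, which conjugate auxin and jasmonate to amino acids, had 0 of 10 called in either direction by edgeR and by DESeq2, with 0 at an unadjusted p under 0.05 and a median of -0.37. Under other settings up to 1 was called lower, and the comparison deposited by the submitters called more of them lower.

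A scan of all 157 symbol stems with at least 10 tested genes gave 3 stems with at least 50% of genes higher and 4 with at least 50% lower. NF-YA, the sequence-specific subunit of the NF-Y complex, had 8 of 10 genes higher and 0 lower, and between 6 and 8 with any 1 library left out. The stem IRX of secondary wall genes had 7 of 10 higher, and ALDH, the aldehyde dehydrogenases, 7 of 14. Lower were ACS (6 of 10), KCS (10 of 17), FLA (8 of 15) and NRT (5 of 10). Some genes of these stems, such as IRX3 (CESA7), IRX1 (CESA8), IRX9 and the FLA genes, were also counted in lists above. The scan is therefore not independent of those lists. A second scan by the product text of the annotation was added after the data were seen. Among 304 groups it gave 1 with at least 50% of genes higher and 3 with at least 50% lower. Of these 3, the O-methyltransferase family had 6 of 10 genes lower and the purine permeases 6 of 12. The other groups are not described here.

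The following members were chosen after their values were seen. NF-YA5 measured 16.2, 15.1 and 14.6 CPM in WT stress and 4.55, 5.53 and 5.65 CPM in WT control (log2 fold change 1.55, adjusted p = 2.38e-06). NF-YA2 measured 75.5, 77.2 and 77.3 CPM in WT stress and 34.2, 45.9 and 41.3 CPM in WT control (0.92, adjusted p = 0.000142). NF-YA1 and NF-YA4 were at 0.02 and 0.04 and were not called. In Arabidopsis these factors are known targets of the microRNA miR169. Of 14 MIR169 transcripts in the files, 2 had enough reads to be tested, and MIR169k (AT3G26815) fell by 2.42 (adjusted p = 0.00898) on 7, 8 and 2 reads in WT stress and 27, 36 and 25 reads in WT control. These are reads of polyadenylated precursors and not levels of the mature microRNA. The value of the other tested MIR169 transcript is not given here, and a link to the NF-YA genes was not tested. IGMT4 (AT1G21130), a methyltransferase of indole glucosinolates with close copies next to it, measured 63.4, 69.8 and 67.4 CPM in WT stress and 186, 146 and 171 CPM in WT control (-1.33, adjusted p = 4.67e-05), and how its reads were told from those of the copies is uncertain.

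Cell type markers moved beside some of these groups, and their part in the results was not tested. Mesophyll markers summed to 19600, 21700 and 20200 CPM in WT stress and 26600, 29000 and 21800 CPM in WT control, with 2 of 7 called lower and 0 called with any 1 library left out. Root hair markers summed to 137, 113 and 111 CPM in WT stress and 54.1, 65.7 and 111 CPM in WT control, so control replicate 3 equalled the lowest stress library. Of 11 root hair markers 2 were called higher, 0 without WT stress replicate 1 or WT control replicate 2, and 9 without WT control replicate 3. Xylem markers summed to 408, 486 and 384 CPM in WT stress and 290, 298 and 311 CPM in WT control, without overlap. Phloem markers summed to 452, 480 and 483 CPM in WT stress and 524, 536 and 503 CPM in WT control. Seed and embryo markers summed to at most 4.93 CPM in any library.

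Of 8 guard cell markers, 3 fell and 0 rose. KAT1, a potassium channel of guard cells, measured 6.34, 7.52 and 8.63 CPM in WT stress and 18.4, 18.1 and 17.8 CPM in WT control (-1.27 ± 0.13, adjusted p = 3.92e-05), and MYB60, a transcription factor, and HT1, a kinase, fell by 0.98 ± 0.12 and 1.00 ± 0.19. The count was also 3 with any 1 library left out. The genes of the stomatal lineage TMM, MUTE, SPCH, FAMA and EPF1 were at 0.00, 0.01, -0.20, -0.23 and 0.44 and were not called.

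**Figure D5:**
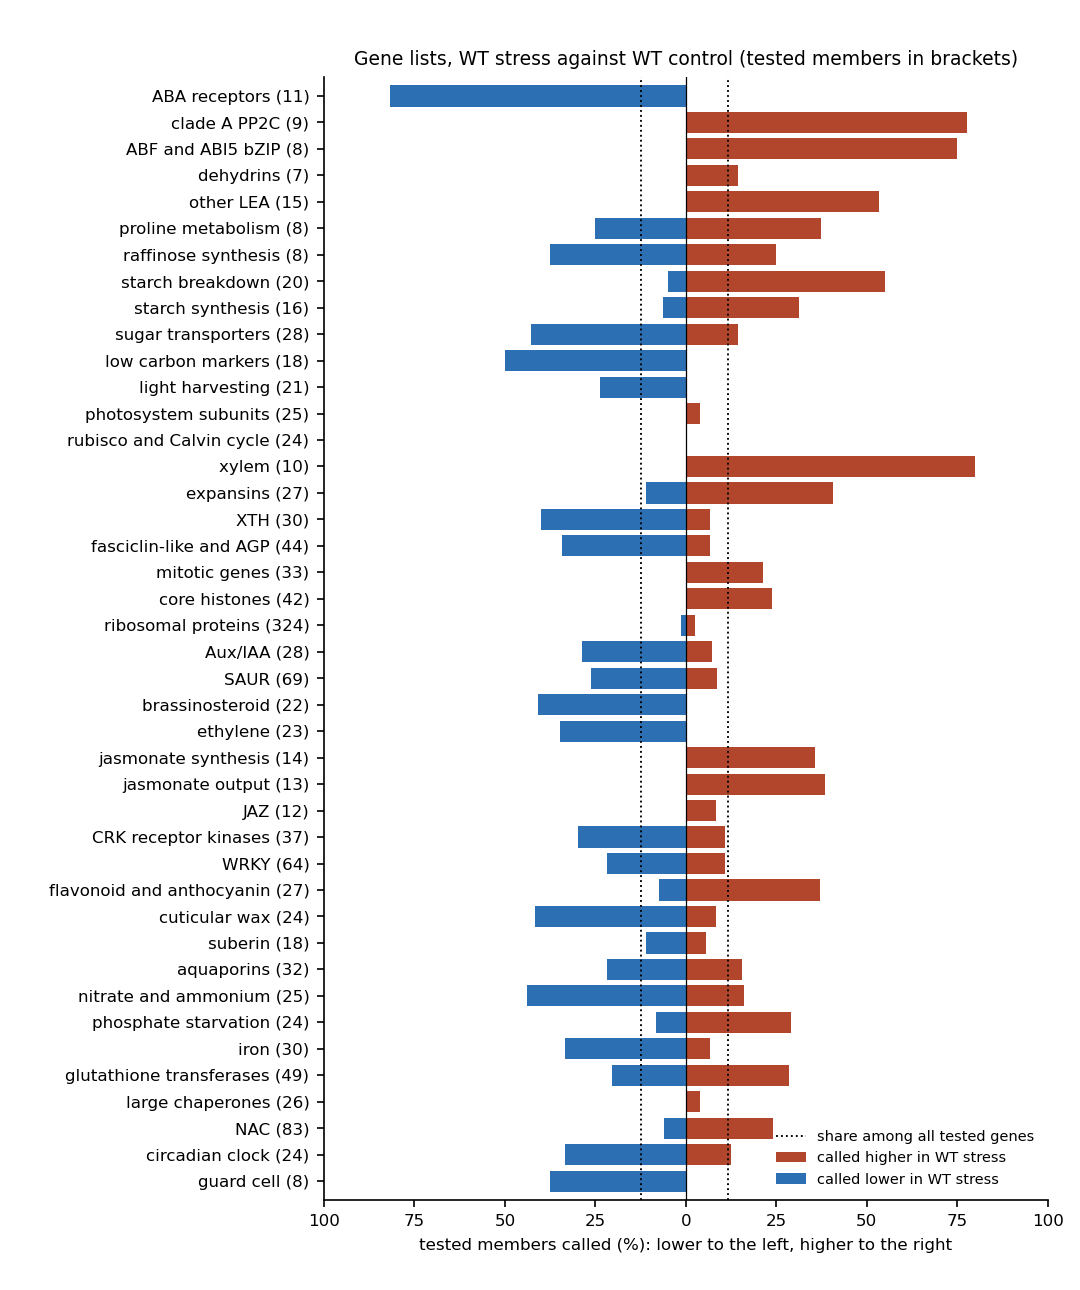
Bars give the percent of each list's tested members called higher (red, to the right) and lower (blue, to the left) in WT stress against WT control, with the number tested in brackets and dotted lines at the shares among all tested genes, 11.7% higher and 12.5% lower. ABA receptors reach 81.8% lower, and xylem, clade A PP2C and ABF and ABI5 bZIP genes reach 80.0%, 77.8% and 75.0% higher, while photosystem, Calvin cycle and ribosomal protein genes stay at or under the background.

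The same lists were read in ahl10-1 stress against ahl10-1 control, which shares no library with the wild-type comparison but shares the fit. There 14.2% of tested genes rose and 13.5% fell. The receptors had 8 of 11 lower with a median of -0.92, the clade A phosphatases 7 of 9 higher with 1.15, starch breakdown 12 of 20 higher with 0.47, low carbon markers 11 of 18 lower with -1.11 and xylem markers 7 of 10 higher with 0.55. Root hair markers had 8 of 11 higher in ahl10-1, against 2 of 11 in WT. The test of the difference between the 2 responses called 0 genes in edgeR (0.0%), and 320 genes (1.42%) had an unadjusted p under 0.05.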

How the data were processed

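RNA-seq of whole seedlings gave 1 table per library. The authors deposited estimated counts of reads per gene, RPKM and a fraction of multi-mapped reads, per the file headers, and a comparison table with log2 fold changes and adjusted p-values, of which no value is printed here. Bowtie2, CASAVA, bcl2fastq 1.8.4, DESeq2 and TAIR10 are named in the submitters' processing notes. The counter, its annotation and its use of strand are not given in the sources used here, so overlapping and antisense genes are uncertain.

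Counts were rounded and fitted for all 12 libraries with edgeR 4.0.16 in R 4.3.3 (TMM, robust quasi-likelihood test, 4 group means, 8 residual degrees of freedom). The filter used a minimum count of 10 and a minimum total of 15, and p-values were adjusted by Benjamini-Hochberg over 22604 genes. Simulated data held 200 changed genes, drawn from genes with many reads, among 22306 tested. There the test called 27 of 50 genes given a 1.5-fold change and 42 of 50 given a 2-fold one. In the real data 24.2% of genes were called, a far larger share, so these rates do not give the power of this comparison. Standard errors follow ±. Nothing beyond the labels separates the replicates, so p-values measure the spread between these libraries.

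Members and lists were chosen with earlier results of these data known. Named genes are, per list, up to 4 called members with the largest change in the majority direction and up to 2 in the other, whose libraries did not overlap and whose higher mean reached 5 CPM, any member of a list of at most 14, and genes holding at least 0.1% of a library. Not every gene that met this rule is named in the text, and the largest change of a list can be left out. Over all genes, deviations of same-numbered WT libraries from their group means were nearly uncorrelated (-0.00388, 0.0164 and -0.04). Chloroplast reads were nonetheless highest in replicate 3 of both groups, at 0.5891% in WT stress and 0.4082% in WT control. Whether libraries of the same number shared a batch was not tested. Alternatives were other scaling factors, filters, tools and fits, log2(RPKM) with limma 3.58.1, DESeq2 1.42.0 and leaving out each library.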

Additional observations from a re-analysis of the deposited data

How the results depend on the processing

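The count of 5478 called genes ranged from 3567 without WT stress replicate 1 to 5374 without WT control replicate 3, and the 1558 genes changed at least 2-fold from 1229 to 1657 with 1 library left out. On log2(RPKM + 1) the 2-fold count was 768, a scale that understates changes of low genes. With the replicate block, in a fit of the 6 WT libraries, 4578 genes were called, 2122 higher and 2456 lower, of which 1251 were at least 2-fold. The 7 symbol stems with at least 50% of genes called one way became 4 with no filter, 11 with at least 1 CPM in 3 libraries and 13 by DESeq2, and between 4 (without WT stress replicate 3) and 8 (without WT control replicate 3) with 1 library left out. The share of ABRE core windows among higher genes was 10.9% with all called genes, against 13.7%. Of 287 genes picked for naming by size of change, 202 kept direction and call under all 16 alternatives. The call of 85 was lost under at least 1, and 0 reversed. The replicate block ended the call of 39. Of 512 comparisons of list counts of 8 or more, 454 were within 1.5 times the reported count. The cause of these shifts was not tested.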
